A study of Mus musculus with 6 samples.

Results

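A set of 9 genes known from phagocytes, Mpeg1, Lyz2, Ncf1, Ncf4, Cybb, Cyba, Tlr7, Csf1r and Itgam, was followed in sorted CD4+YFP+ T cells of mouse lymph nodes. They were read on all probe sets of the array to which the platform annotation gives 1 of these 9 symbols and no other, which came to 17 of 45101 probe sets and 9 of 18194 genes so named. The genes were chosen on the differences between the genotypes on these same 6 arrays, beginning with the higher Mpeg1 and Ncf1 in KO cells. The KO minus Het values of the members are therefore given as a description, with no test of their own.

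The series holds 3 arrays of KO cells and 3 arrays of Het cells, each group lettered A, B and C. KO mice carried Dicer lox/lox and Het mice Dicer wt/lox. Mice of both genotypes also carried the FoxP3-GFP-hCre transgene, in which a humanised Cre is produced where Foxp3 is active, and a ROSA26R-YFP reporter that marks cells in which Cre has acted. Het cells thus also carry 1 lox copy of the gene, and Cre was active in the sorted cells of both groups. The comparison asks what changes in these cells when Dicer, the enzyme that cuts microRNA precursors, can be lost from both copies. The labels give no age, sex or number of animals per array and do not say that the letters are separate mice, so the spread between arrays may be technical. Values are probe set intensities normalized by the authors with GCRMA, on a linear scale. A difference is the mean log2 intensity of the KO arrays less that of the Het arrays.

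Professional phagocytes kill what they engulf with pore-forming proteins, lysozyme and an oxidase that makes superoxide at the phagosome membrane. Cybb and Cyba encode the membrane subunits of this NADPH oxidase, and Ncf1 and Ncf4 encode cytosolic subunits that join them on activation, Ncf1 being the organiser. Mpeg1 encodes a pore-forming protein of the perforin family, Lyz2 the lysozyme of macrophages, Tlr7 an endosomal receptor for single-stranded RNA, Csf1r the receptor of the macrophage growth factor, and Itgam the alpha chain of a leukocyte integrin that binds complement. B cells are also known to use parts of this set, among them the oxidase subunits and Tlr7.

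The promoters of these genes are set side by side first, since the genes behaved differently on the arrays and 1 myeloid factor is known to bind several promoters of this kind. RefSeq promoter windows of build GRCm38.p6, running from 250 bases before to 50 bases after the gene start, were matched by symbol for 6 of the 9 genes. Those for Ncf4, Tlr7 and Csf1r are not shown here. Each window was searched on both strands for GAGGAA, the core bound by PU.1, the ETS factor of myeloid cells and B cells, and matches are in capitals, reading TTCCTC where the match lies on the opposite strand. Of 32851 windows of 300 bases in the table, 28.3% held at least 1 match. The windows of 2 of the 6 genes held it. Cybb had 1 match, 9 bases past the start that the promoter table uses, and Itgam had 3, while the windows of Mpeg1, Ncf1, Lyz2 and Cyba had 0. The Cybb start in that table lies inside the span that RefSeq gives for the whole gene, so its window is not at the outer end of the gene. No match says only that these letters are absent from this window. Shown are the genes with matches, followed by the pair with the largest KO minus Het differences. They lie at chrX:9469275-9469574 (minus strand), chr7:128062390-128062689 (plus strand), chr19:12460520-12460819 (plus strand) and chr5:134229576-134229875 (minus strand), in the order printed.
Cybb: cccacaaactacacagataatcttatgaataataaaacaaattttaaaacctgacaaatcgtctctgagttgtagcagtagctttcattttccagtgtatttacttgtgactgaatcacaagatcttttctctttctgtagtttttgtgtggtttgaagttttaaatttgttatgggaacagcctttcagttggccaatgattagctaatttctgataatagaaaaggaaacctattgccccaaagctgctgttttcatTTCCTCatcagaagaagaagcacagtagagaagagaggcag
Itgam: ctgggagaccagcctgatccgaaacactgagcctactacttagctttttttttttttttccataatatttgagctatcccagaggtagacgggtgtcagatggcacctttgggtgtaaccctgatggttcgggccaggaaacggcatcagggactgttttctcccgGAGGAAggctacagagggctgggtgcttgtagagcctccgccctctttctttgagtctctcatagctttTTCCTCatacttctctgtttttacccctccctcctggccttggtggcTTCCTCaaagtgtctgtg
Mpeg1: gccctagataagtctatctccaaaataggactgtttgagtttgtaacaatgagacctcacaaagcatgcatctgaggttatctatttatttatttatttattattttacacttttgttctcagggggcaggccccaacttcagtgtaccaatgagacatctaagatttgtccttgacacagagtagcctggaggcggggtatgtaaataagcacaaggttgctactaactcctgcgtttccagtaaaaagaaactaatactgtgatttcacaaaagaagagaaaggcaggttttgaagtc
Ncf1: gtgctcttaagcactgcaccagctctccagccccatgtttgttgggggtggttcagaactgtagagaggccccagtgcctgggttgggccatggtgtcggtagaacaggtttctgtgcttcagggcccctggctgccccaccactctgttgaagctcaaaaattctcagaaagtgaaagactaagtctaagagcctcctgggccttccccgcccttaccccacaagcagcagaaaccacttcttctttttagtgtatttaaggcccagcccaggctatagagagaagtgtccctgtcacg

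Before the members are described, the state of the arrays is given in brief. Dicer1 read 1029, 1053 and 1187 on its brighter probe set in KO A, B and C, against 1203, 1077 and 1059 in Het A, B and C. Its other probe set read 897, 976 and 709 in KO and 1218, 1120 and 1345 in Het. The position of these probes within Dicer1 was not looked up, and they are no check of the genotype labels. The T cell genes Cd3e (12494 to 15246 in KO, 13820 to 16450 in Het) and Foxp3 (5420 to 9417 in KO, 8945 to 9960 in Het) were bright on every array. In each genotype the B array was the highest of its group for B cell and CD8 T cell marker signal, and KO B and KO C were the highest for macrophage markers. The ratio of 3 prime to 5 prime beta-actin signal was 2.15 in KO B and lay between 1.41 and 1.93 on the other 5 arrays.

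Of the 17 member probe sets 14 passed the filter on dim values, a log2 intensity above 4 (16 on the linear scale) on at least 3 of the 6 arrays. The Itgam probe set and 2 of 3 Csf1r probe sets did not, so 8 of the 9 genes had a probe set in the comparison. By limma with Benjamini-Hochberg adjustment over all 29507 probe sets tested, 4 member probe sets lay past a threshold of 0.05 as higher in KO, against 1.11% of all probe sets. Another 1 member probe set was past it as lower in KO, against 0.668%. Groups did not overlap, with every KO array above every Het array, for 6 member probe sets, against 11.3% of all, and with every KO array below every Het array for 3, against 14.9%. Since this contrast chose the members, nothing is read from these shares. The set did not move as 1 block. Mpeg1 and Ncf1 were higher in KO, Lyz2 was higher on average with groups that overlapped, and Ncf4 and Cyba were slightly higher. Tlr7 was lower, Cybb uneven, Csf1r different by probe set, and Itgam at the background of the method.

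**Figure D1:**
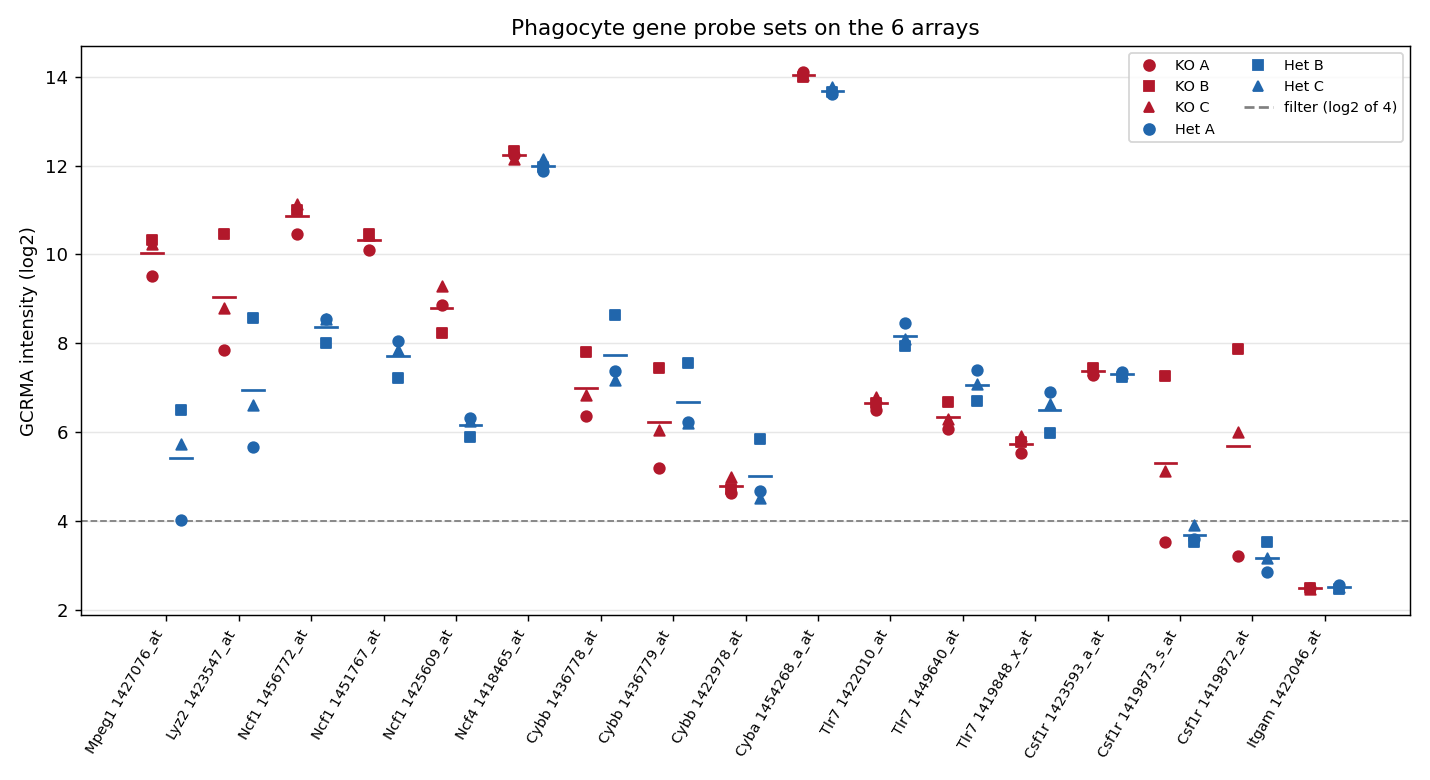
Log2 GCRMA intensity of the 17 phagocyte gene probe sets on the 3 KO arrays (red) and the 3 Het arrays (blue), with letters by symbol shape, group means as bars and the filter at a log2 of 4 as a dashed line. Mpeg1 and the 3 Ncf1 probe sets show KO arrays clear of the Het arrays, Tlr7 shows them below, and Lyz2 and Cybb spread widely within each group.

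Mpeg1 had the largest difference of the set. It read 727, 1274 and 1212 in KO A, B and C, against 16.1, 89.7 and 52.9 in Het A, B and C. All KO arrays stood far above all Het arrays, and Het A lay just over the filter value of 16. The means were 1071 ± 299 in KO and 52.9 ± 36.8 in Het (SD, n = 3 each), a geometric 24.5-fold difference, or 4.61 ± 0.65 on the log2 scale (SE). Of all 29507 probe sets tested, 21 had a higher KO minus Het difference. GCRMA lowers dim signals toward a floor, and 2 Het arrays read Mpeg1 below their array's median, so the fold depends on that step. The gene lies on chromosome 19, from 12460770 to 12465285 in GRCm38.p6, where RefSeq annotates a protein-coding gene.

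Ncf1 was higher in KO on all 3 of its probe sets, by nearly the same amount. The brightest read 1419, 2056 and 2246 in KO A, B and C, against 371, 258 and 373 in Het A, B and C. The second read 1091, 1402 and 1393 in KO and 266, 149 and 229 in Het. The dimmest read 463, 300 and 626 in KO and 80.1, 59.6 and 76.3 in Het. In each case the lowest KO array stood above the highest Het array by a wide margin. The log2 differences were 2.51 ± 0.23, 2.63 ± 0.24 and 2.63 ± 0.29 (SE), or 5.68-fold, 6.17-fold and 6.20-fold. Het B was the lowest Het array on each of the 3. Ncf1 lies on chromosome 5, from 134220053 to 134229628.

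The oxidase partners of Ncf1 in the set did not share the size of its difference. Ncf4, a cytosolic subunit, read 4861, 5114 and 4570 in KO A, B and C, against 3743, 4029 and 4557 in Het A, B and C. KO C and Het C were almost equal, and the log2 difference was 0.24 ± 0.10 (SE). Cyba, the smaller membrane subunit, read 17729, 16337 and 16758 in KO and 12540, 12944 and 13911 in Het. Its groups did not overlap, and the log2 difference was 0.37 ± 0.08 (SE), or 1.29-fold. Ncf4 lies on chromosome 15 (78244164 to 78262582) and Cyba on chromosome 8 (122424771 to 122432940).

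Cybb, the catalytic membrane subunit, was not higher in KO, and its 2 brighter probe sets were highest on the B arrays. Its brightest probe set read 82.0, 223 and 114 in KO A, B and C, against 167, 397 and 145 in Het A, B and C. The second read 36.5, 175 and 65.7 in KO and 75.2, 188 and 74.2 in Het. Both were highest in the B array of each genotype, by 1.21 and 1.84 on the log2 scale over the mean of A and C in KO and by 1.35 and 1.33 in Het. Within letters A, B and C the KO array lay below the Het array each time, at log2 -1.02, -0.83 and -0.35 on the brightest and -1.04, -0.10 and -0.17 on the second. The KO minus Het differences were -0.74 ± 0.53 and -0.44 ± 0.67 (SE), with groups that overlapped. The dimmest probe set read 24.7 to 31.9 in KO and 22.7 to 57.1 in Het, below the array median on all 6 arrays. Cybb thus gave no difference between genotypes beyond the spread of its arrays. The gene spans 9435252 to 9487766 on chromosome X, and the window printed above lies inside that span.

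Tlr7 was the member that was lower in KO. Its brightest probe set read 90.3, 101 and 110 in KO A, B and C, against 353, 245 and 272 in Het A, B and C. The 3 KO arrays lay close together and below every Het array, and the log2 difference was -1.51 ± 0.16 (SE), so the geometric mean was 2.85-fold lower in KO. The second probe set read 67.1, 102 and 78.4 in KO and 169, 104 and 135 in Het (log2 -0.71 ± 0.23). The third read 45.8, 54.9 and 60.2 in KO and 120, 63.0 and 98.4 in Het (log2 -0.76 ± 0.26). On these dimmer probe sets the highest KO array came within a few units of Het B, so that the groups were apart but nearly touched. Tlr7 lies on chromosome X, from 167303380 to 167330574.

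Lyz2 was higher in KO within each letter, and differed as much by letter. It read 232, 1408 and 441 in KO A, B and C, against 50.6, 381 and 97.4 in Het A, B and C. Each KO array stood above the Het array of the same letter, by 2.19, 1.88 and 2.18 on the log2 scale, but KO A lay below Het B and the groups overlapped. The B arrays stood above the mean of A and C by 2.14 in KO and 2.44 in Het, as much as the genotypes differed (2.09 ± 0.96, SE). Lyz1, a close paralogue, read 382, 3098 and 818 in KO and 106, 747 and 189 in Het on its brightest probe set. That probe set is of a type marked as open to cross-hybridisation. The only Lyz1 probe set without that mark read 8.17 to 9.52 in KO and 7.79 to 11.2 in Het, under the filter. Signal of Lyz1 and Lyz2 may thus not be separate. Lyz2 lies on chromosome 10, from 117277541 to 117282272.

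Csf1r gave a different answer on each kind of probe set. The brightest read 156, 174 and 168 in KO A, B and C, against 164, 152 and 162 in Het A, B and C. Its log2 difference was 0.06 ± 0.08 (SE). The other 2 were at the floor on every Het array and on KO A, and were raised on KO B and KO C. The first read 9.29, 233 and 63.9 in KO and 7.15, 11.5 and 8.94 in Het, and the other 11.6, 155 and 35.0 in KO and 12.0, 11.4 and 15.1 in Het. KO B was the highest and KO A no different from Het on both. They passed the filter value on 2 arrays each and stayed out of the comparison. Itgam read 5.64, 5.62 and 5.54 in KO and 5.91, 5.49 and 5.70 in Het, under the filter on all 6 arrays. At this floor no level and no difference of Itgam can be read.

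**Figure D2:**
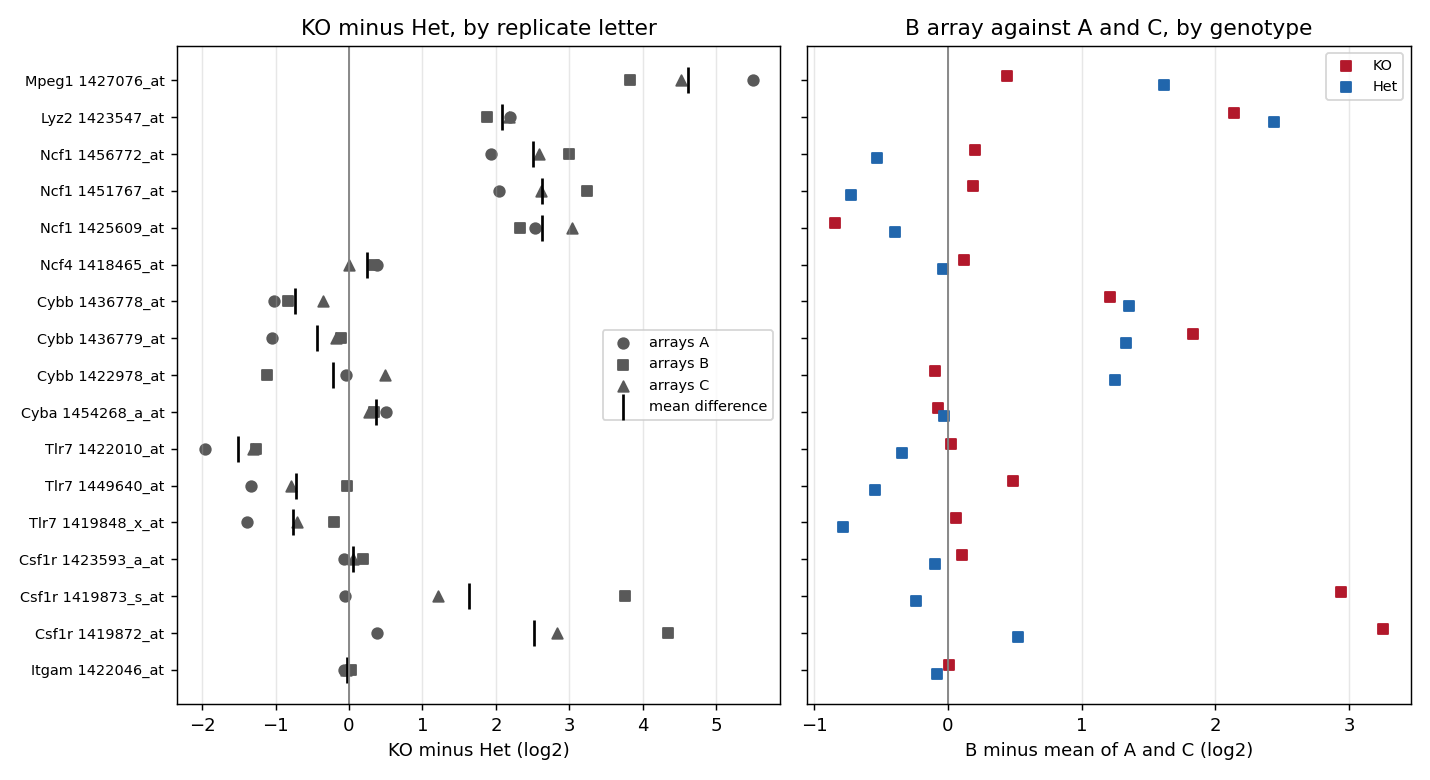
Left, the KO minus Het log2 difference within each letter (symbols) and on average (bar) for the 17 probe sets; right, the log2 difference of the B array from the mean of A and C in KO (red) and Het (blue). Ncf1 averages 2.51 to 2.63 over its probe sets with no shared B array shift, Lyz2 is shifted on both axes, and Cybb is shifted on the right in both genotypes for its 2 brighter probe sets.

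The arrays of letter B carried more signal of B cell and of CD8 T cell and NK cell markers, and the members followed this unevenly. Of 10 tested B cell markers 9 were highest in the B array of both genotypes, and of 6 CD8 T cell and NK cell markers 3 were. So were 4 of 7 plasma cell markers, 4 of 11 dendritic cell markers and 2 of 16 macrophage and monocyte markers. Among 9 alpha beta T cell markers 1 was, and among 5 neutrophil markers 0 were. Of all probe sets tested 9.42% were. Of the 14 tested member probe sets 4 were, namely Mpeg1, Lyz2 and the 2 brighter ones of Cybb. The summed intensity of 13 B cell markers was 3331, 6593 and 2930 in KO A, B and C, against 3259, 5392 and 1933 in Het A, B and C. Without Cd22, the brightest of them, it was 2268, 3613 and 1618 in KO A, B and C, against 2725, 4552 and 1399 in Het A, B and C. The B array stayed the highest of each genotype, with Het B then above KO B. Ms4a1, which encodes the B cell surface protein CD20, read 122, 717 and 117 in KO and 37.4, 524 and 48.1 in Het, and Cd79a, a chain of the B cell receptor, 88.9, 284 and 86.9 in KO and 69.2, 241 and 82.0 in Het. Without both B arrays the log2 difference was 5.01 for Mpeg1, 2.26 for the brightest Ncf1 probe set, 2.19 for Lyz2, -0.69 for the brightest Cybb and -1.64 for the brightest Tlr7 probe set. The limma count of member probe sets past the threshold was then 0 (10 at an unadjusted p under 0.05), and that of all probe sets also 0 (5274). In bulk RNA, fewer cells of a type and less RNA per cell cannot be told apart.

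Macrophage and monocyte markers separated the KO arrays from each other. C1qa, a chain of the complement component C1q that tissue macrophages make, read 3.03, 251 and 150 in KO A, B and C, against 3.13, 2.98 and 3.06 in Het A, B and C. C1qc read 2.77, 144 and 63.4 in KO and 2.71 to 2.88 in Het, and C1qb 79.3, 1100 and 297 in KO and 44.3 to 61.8 in Het. KO A was at the level of the Het arrays for C1qa and C1qc. Of 24 markers with a probe set, 1 (Cd68) stood more than 1 log2 unit above the Het mean in KO A, 12 in KO B and 8 in KO C, against 2.49%, 3.20% and 3.05% of all probe sets on these arrays. The summed intensity of the 24 was 2478, 5332 and 3394 in KO A, B and C, against 1652, 2119 and 1687 in Het A, B and C. Ccr2, a chemokine receptor gene that T cells also use, carried much of this sum (1528 in KO A). Without it, a step added after the data were seen, the sum of the other 23 was 949.8, 4405 and 2092 in KO A, B and C, against 960.4, 874 and 891 in Het A, B and C. KO A then lay just under Het A and above Het B and Het C. The place of Het A above KO A rests on Fcgr3, which read 39.95 in KO A and 119.8, 55.2 and 58.5 in Het A, B and C. Adgre1, which encodes the macrophage protein F4/80, read 50.2, 64.3 and 54.1 in KO A, B and C and 45.8 to 50.3 in Het, with KO B the highest. Fcgr1 read 110 to 112 in KO and 111 to 120 in Het. Cd14 was under the filter on all 6 arrays, so that no difference can be read for it.

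The members are given array by array beside these markers. On KO A, Mpeg1 was 4.10 above the Het mean on the log2 scale and the 3 Ncf1 probe sets 2.11, 2.39 and 2.70. Among macrophage markers on the same array, Cd68 was 1.04 above the Het mean, Ccr2 0.79, C1qb 0.61 and Tyrobp 0.60. C1qa, C1qc and Fcer1g were singled out after their values were seen (Fcer1g 7.94, with 7.69 to 8.34 in Het). They and the dim Csf1r probe sets were under the filter value on KO A and all Het arrays. No difference on KO A can be read for them. Brightest Tlr7 was -1.66 from the Het mean there and Cyba 0.43. On KO B and KO C Mpeg1 was 4.91 and 4.84 above the Het mean. The 3 Ncf1 probe sets were 2.64, 2.75 and 2.07 above it on KO B and 2.77, 2.74 and 3.13 on KO C. Mpeg1 and the brightest and second Ncf1 probe sets were thus raised on all 3 KO arrays, and least on KO A. Lyz2 was 0.91, 3.51 and 1.84 above the Het mean in KO A, B and C. The order KO B over KO C over KO A, singled out after the values were seen, held for 7 of 14 tested member probe sets, Lyz2 and Mpeg1 among them, and for 7 of 16 tested macrophage markers, against 21.5% of all probe sets tested. By limma 0 of these 16 markers passed (2 higher, 0 lower by unadjusted p under 0.05), and their median log2 difference was 0.35, against -0.03 over all probe sets tested.

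**Figure D3:**
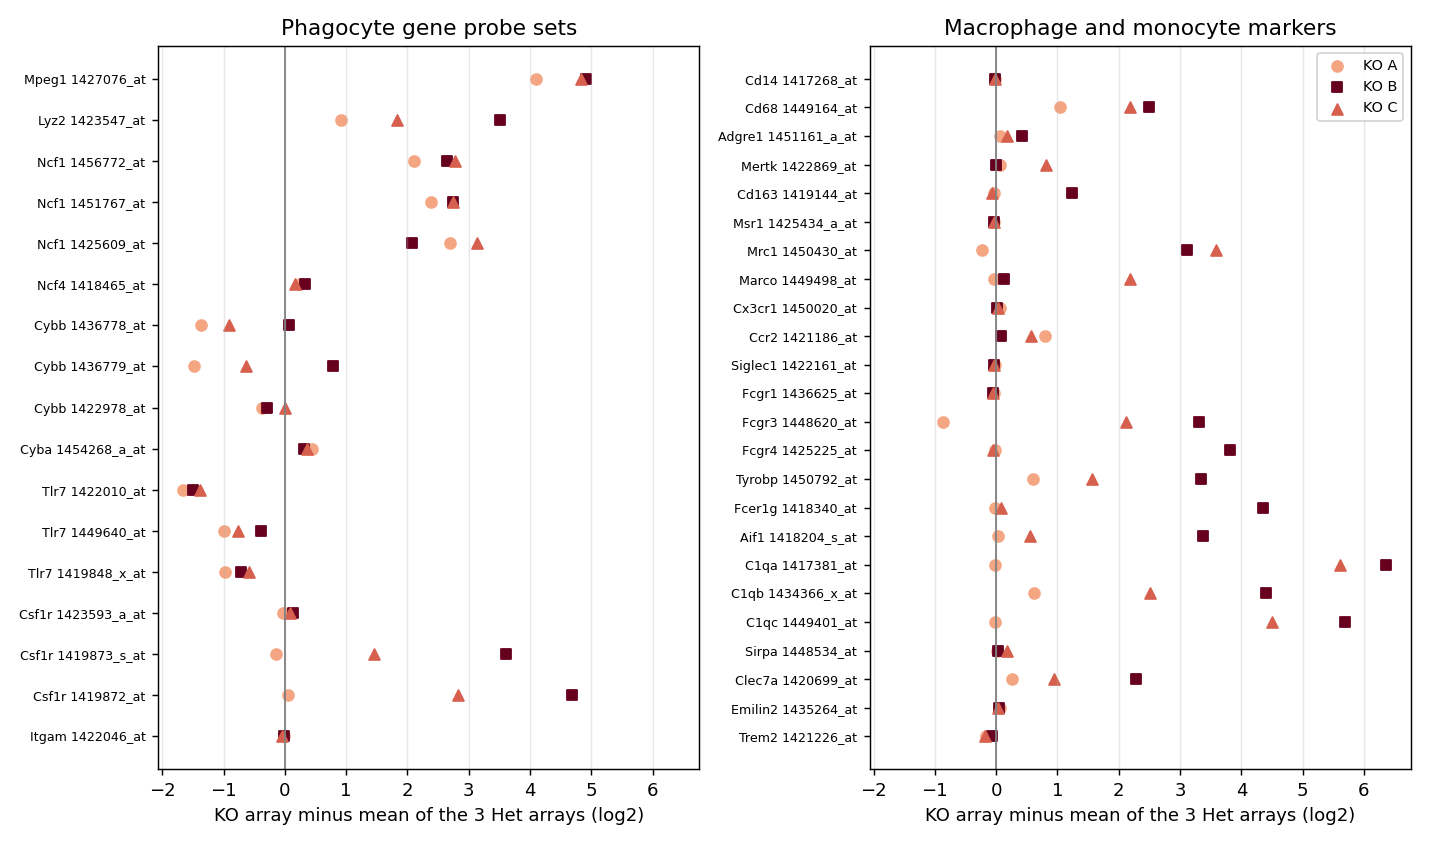
Log2 intensity of KO A, KO B and KO C, each minus the mean of the 3 Het arrays, for the 17 phagocyte gene probe sets (left) and the 24 macrophage and monocyte markers (right). Mpeg1 and Ncf1 are raised on all 3 KO arrays. C1qa, C1qc and the 2 dim Csf1r probe sets are raised on KO B and KO C and sit near 0 on KO A. They were under the filter value on KO A and every Het array, so no difference can be read there. Of the 24 markers 1 (Cd68) stands more than 1 above the Het mean on KO A.

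Markers of further cell types were read beside the members. Of 5 tested neutrophil markers 0 passed by limma (1 higher, 0 lower by unadjusted p under 0.05). S100a9, an alarmin of neutrophils, read 17.8 to 28.7 in KO and 17.4 to 18.4 in Het, and S100a8 8.96, 82.3 and 8.72 in KO A, B and C and 8.86 to 11.5 in Het. Mmp9, a gelatinase, gave log2 1.26 (limma, adjusted p = 0.226) and the antimicrobial peptide gene Camp -0.09 (adjusted p = 0.557). Of 11 tested dendritic cell markers 0 passed (1 higher, 1 lower by unadjusted p under 0.05), with Ly6d at log2 2.38, the lectin gene Clec10a at 2.13 and the factor gene Tcf4 at -1.29 (adjusted p = 0.193, 0.306 and 0.12). Itgax, the dendritic cell integrin chain, read 8.16, 52.0 and 8.11 in KO A, B and C and 8.05 to 8.43 in Het, and Siglech 22.3 to 22.7 in KO and 23.0 to 37.3 in Het. Of 10 tested B cell markers 0 passed (1 higher, 0 lower by unadjusted p under 0.05), the smallest adjusted p being 0.173 for the receptor gene Cd22 (log2 1.37), with Cd72 at -1.21 and Bank1 at 0.82. Plasma cell markers stood higher in KO in sum, at 17270, 24526 and 22656 in KO A, B and C, against 11764, 12561 and 13368 in Het A, B and C. Most of each sum was Xbp1 (12588 to 15127 in KO, 7251 to 7859 in Het). Without it, again after the data were seen, the sums were 4682, 9536 and 7529 in KO A, B and C, against 3904.5, 5309.9 and 5544 in Het A, B and C. KO A was then below Het B and Het C. Irf4 carried much of what was left on these arrays, at 2012 in KO A against 2699, 3195 and 4026 in Het A, B and C. With Irf4 left out as well, KO A is again above every Het array, so the order of KO A and Het rests on that gene. Jchain, the joining chain of antibodies, read 389, 3197 and 2623 in KO and 11.5, 163 and 13.6 in Het (log2 5.66, adjusted p = 0.101), and Prdm1 gave 0.77 (adjusted p = 0.172). Xbp1, a secretory pathway factor, was the 1 of 7 tested plasma cell markers past the threshold (log2 0.89 ± 0.10, SE, limma, adjusted p = 0.027). By unadjusted p under 0.05, 4 of the 7 were higher and 0 lower. Of 6 tested CD8 T cell and NK cell markers 0 passed (1 higher, 0 lower by unadjusted p under 0.05), with log2 0.41 for Klrk1 and -0.08 for Klre1. Nkg7, a cytotoxic granule gene, read 1943, 3895 and 1527 in KO A, B and C and 939, 1176 and 1306 in Het A, B and C (limma, adjusted p = 0.224). Of 9 tested alpha beta T cell markers 0 passed (1 higher, 1 lower by unadjusted p under 0.05), with 0.32 for Cd2, -0.23 for Cd3d and -0.55 for Foxp3. The part of these other cells in the member differences was not tested beyond the values on single arrays above.

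**Figure D4:**
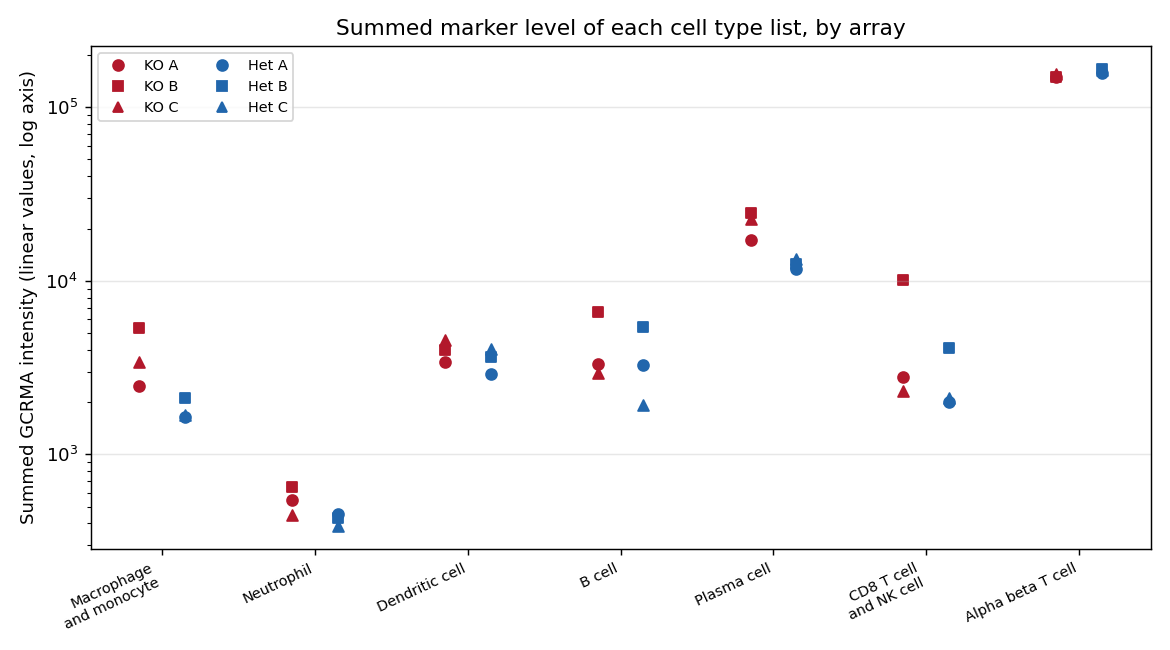
Summed linear intensity of each cell type list (log axis, 1 probe set a gene) on the 3 KO arrays (red) and the 3 Het arrays (blue), by letter. Macrophage and plasma cell sums are higher on all 3 KO arrays. Without Ccr2 and Xbp1, respectively, the KO A sums are not above every Het array. For the macrophage sum only Het A is then above KO A, which rests on Fcgr3 (39.95 in KO A, 119.8 in Het A). Without Xbp1, Irf4 (2012 in KO A, 2699 to 4026 in Het) carries much of the plasma cell sum. With Irf4 left out as well, KO A is again above every Het array. B cell and CD8 and NK sums are highest on the B array of each genotype.

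Genes that work with the members were then taken from 6 pathway lists, beside the 7 cell type lists above. Of 120 tested genes over these 13 lists that are no members, 6 rose and 0 fell (limma), against 1.37% of all genes higher and 0.956% lower by 1 probe set a gene. Leaving out Het A, Het B, Het C, KO B or KO C left 0 listed genes past the threshold, and leaving out KO A left 5. Besides Xbp1 the 6 genes were Csf1, Icam1, Cebpb, Id2 and Ctsc.

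Partners of the oxidase differed little. Of 6 tested genes 0 passed (limma; 1 higher, 0 lower by unadjusted p under 0.05), and their median log2 difference was 0.07. Rac1 and Rac2, small GTPases of which Rac2 serves the phagocyte oxidase, gave 0.33 ± 0.08 and 0.14 ± 0.10 (SE; limma, adjusted p = 0.12 and 0.523). Noxo1, an organiser subunit of an epithelial oxidase, gave -0.14.

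The growth factor that binds Csf1r rose, with its receptor as described above. Csf1 read 838, 1222 and 1044 in KO A, B and C, against 483, 388 and 482 in Het A, B and C. Every KO array stood above every Het array. The log2 difference was 1.19 ± 0.17 (SE; limma, adjusted p = 0.0424). It was the 1 of 8 tested genes of this list past the threshold. The stem cell factor receptor gene Kit (0.63) and the cytokine gene Csf2 (0.34) did not pass (limma, adjusted p = 0.501 and 0.356), and the median was 0.25.

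Around Itgam, the ligand gene of its integrin rose. Icam1, an adhesion molecule bound by integrins of this class, read 4127, 4123 and 3894 in KO A, B and C and 2433, 2369 and 2314 in Het A, B and C (log2 0.77 ± 0.07, SE; limma, adjusted p = 0.0222). Itgb2, the beta chain that pairs with Itgam and with the lymphocyte chain Itgal, read 23107, 23601 and 24940 in KO and 15097, 16614 and 17686 in Het. Its groups did not overlap, but at log2 0.54 ± 0.09 it did not pass (adjusted p = 0.0555). Fermt3, an integrin activator, gave 0.16 (adjusted p = 0.324). Of 5 tested genes of this list 1 rose, with a median of 0.16.

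Among 11 tested genes of a list of myeloid transcription factors, not all of them limited to myeloid cells, Cebpb and Id2 rose and 0 fell. The median was 0.23. Cebpb read 3728, 3440 and 7149 in KO A, B and C and 1146, 980 and 1199 in Het A, B and C (log2 2.03 ± 0.30, SE; limma, adjusted p = 0.0429). Id2, bright in the sorted T cells of both genotypes (10996 to 13767 in Het), gave 1.38 ± 0.11 (adjusted p = 0.0191). Spi1, which encodes PU.1, read 64.3, 115 and 64.9 in KO A, B and C and 65.4, 73.5 and 71.8 in Het A, B and C (log2 0.16, adjusted p = 0.779), with KO B alone above the rest. Irf8, a partner of PU.1, gave 0.97 (adjusted p = 0.145).

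Toll-like receptor genes and their adaptors did not pass as single genes. Of 15 tested 0 passed (limma; 5 higher, 0 lower by unadjusted p under 0.05), and the median was 0.09. Tlr6, which pairs with Tlr2 to sense lipopeptides, read 262, 318 and 268 in KO A, B and C and 97.9, 89.3 and 186 in Het A, B and C, above Het on every array, unlike Tlr7 (log2 1.26, adjusted p = 0.103). Traf6, the ubiquitin ligase below these receptors, gave 0.69 (adjusted p = 0.0942), and Irf7, the interferon factor below Tlr7, 0.70 (adjusted p = 0.221). Unc93b1, the chaperone that carries Tlr7 to endosomes, read 249, 450 and 238 in KO and 169, 202 and 182 in Het. It was named after its values were seen.

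Lysosomal proteases had 1 of 14 tested genes higher and 0 lower, with a median of 0.39. Ctsc, the activator of granule serine proteases, read 6802, 6274 and 6915 in KO A, B and C and 4508, 4289 and 4624 in Het A, B and C (log2 0.57 ± 0.08, SE; limma, adjusted p = 0.0408). Lgmn, an asparagine endopeptidase, gave 1.19 and Ctsd, an aspartic protease, 0.42 (adjusted p = 0.0568 and 0.0555). Of the 14, 7 had every KO array above every Het array.

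**Figure D5:**
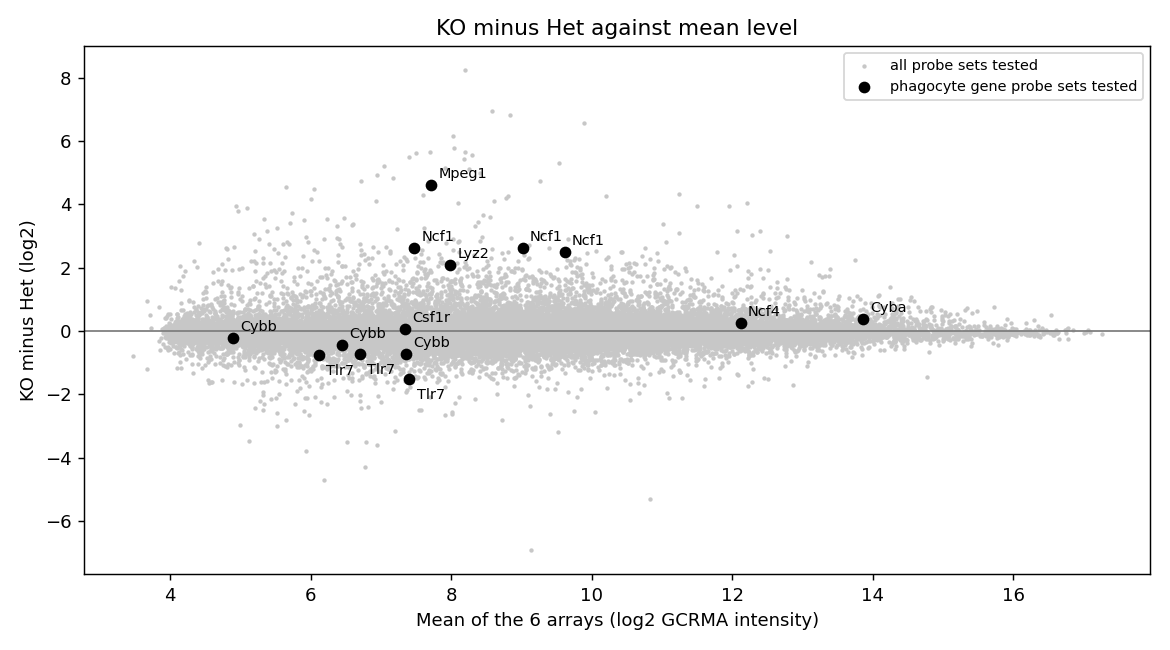
KO minus Het log2 difference against the mean log2 intensity of the 6 arrays for 29507 tested probe sets (grey) and the 14 tested phagocyte gene probe sets (black). Mpeg1 lies at 4.61 and the 3 Ncf1 probe sets near 2.5, Tlr7 reaches -1.51, and Ncf4 and Cyba lie close to 0 at high intensity.

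The genes with profiles most like each member were found by the root mean square distance of log2 values over the 6 arrays, each profile centred on its mean, among 12491 genes. Nearest to Mpeg1 were Plac8 (distance 0.30), Igkv9-120 (0.57), an antibody light chain segment, and Ifitm1 (0.64), an interferon-induced membrane protein, where the Mpeg1 profile itself had an SD of 2.67. Plac8 read 2209, 4204 and 3442 in KO A, B and C and 59.4, 281 and 102 in the Het arrays. Nearest to Ncf1 were Ifitm2 (0.24), Ccdc102a (0.24) and Tmem176a (0.25), against an SD of 1.40. Nearest to Lyz2 were Lyz1 (0.13), the metallothionein gene Mt1 (0.35) and the adaptor gene Tyrobp (0.36), against an SD of 1.70. Cybb lay nearest to Tpx2 (0.18), a spindle factor, Max (0.34) and Rrp8 (0.35), and Tlr7 to Mapk12 (0.12), Inpp5f (0.13) and Srsf12 (0.16). Profiles of Ncf4, Cyba and Csf1r varied little, with an SD of 0.17, 0.21 and 0.07, and had neighbours (Rexo2, Faf1 and Nipa2; Ermp1, Trim34a and Vps26a; Chst10, Dpysl2 and Dnm1l) at distances of 0.01 to 0.04. Distances rest on 6 arrays that share 2 genotypes, so they describe these arrays alone.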

How the data were processed

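Messenger RNA of 6 sorted samples was measured on expression arrays, 3 KO and 3 Het. The intensities were normalized with GCRMA by the authors, per the labels, which subtracts a sequence-based background, normalizes between arrays and summarises probes. No software version is named in the labels. The values run from 1.23 to 170023 and were taken as linear, so log2 was taken first. Depth has no counterpart here, and the 3 arrays per group limit the precision.

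Of 45101 probe sets, 64 controls and 1 lacking some values did not enter, and 29507 with a log2 above 4 on at least 3 arrays were tested. Names came from the platform annotation (34958 probe sets with 1 symbol, 932 with several, 9211 unnamed here), and positions from RefSeq by gene identifier for all 9 members. The comparison of KO with Het used limma 3.58.1 under R 4.3.3 (lmFit and eBayes, two-sided, no covariates, Benjamini-Hochberg), which was also tested on simulated data. For listed genes the brightest probe set stands for the gene.

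Members, lists and tests were chosen with earlier results of these data known. Named are every member probe set, the 3 genes with the smallest p of each list, a few defining markers and the 3 nearest profiles of each member that passed the filter. C1qa, C1qc, Fcer1g, Lyz1 and Unc93b1 were added after their values were seen. Alternatives were a block on the letters, other filters, a pseudocount of 16, quantile normalization, median centring, an intensity trend, weights per array, averaging the probe sets of each listed gene, and leaving out arrays. Plots were drawn with matplotlib 3.10.9.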

Additional observations from a re-analysis of the deposited data

How the results depend on the processing

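Direction was kept by Mpeg1, Lyz2, Ncf1, Ncf4, Cyba and Tlr7 on all of their probe sets under all 16 alternatives. Of these, 4 (the block, both filters and the trend) leave the differences as they are by construction. For all these genes but Lyz2, every KO array lay on the same side of every Het array. Leaving out arrays, array weights and the pseudocount could not turn their sign, so nothing is read from it. The same holds for the probe sets past the threshold, of which 0 changed sign. Mpeg1 ranged over log2 3.92 to 5.15, the brightest Ncf1 probe set 2.11 to 2.71, Lyz2 0.91 to 2.90 and the brightest Tlr7 probe set -1.66 to -1.36. Signs turned under some alternatives for the 2 dimmer Cybb probe sets, Itgam and the Csf1r probe sets other than the one with the largest difference, none of which was past the threshold. Of 204 member values under the 12 that can move them, 197 moved by less than 1 SD of the arrays. The calls were less stable than the sizes, and the cause was not tested. Against 525 probe sets past the threshold in all, 5 of members and 6 listed genes, leaving out 1 array in turn gave 0 to 176 in all, 0 to 2 of members and 0 to 5 listed genes (limma; 4227 to 5454 in all at an unadjusted p under 0.05). All 3 counts were 0 when neither B array was used (unadjusted 5274, 10 and 29). With KO A alone against the Het arrays, a fit added after the data were seen in which KO A is assumed to vary like the Het arrays, they were 0 (unadjusted 3865, 7 and 17). Array weights gave 957 in all and 10 listed genes. With the letters as a replicate block all 3 counts were 0 (unadjusted 5365, 9 and 37). The labels do not say what the letters mean, and the arrays did not meet the rule for pairing, a correlation over 0.1 in every letter: deviations from the group mean correlated at 0.28 for A, -0.17 for B and 0.01 for C across probe sets. The filters, the pseudocount, quantile normalization, median centring and the trend left the counts within 1.5 times. Signal near the floor limits what can be said of Itgam, of 2 Csf1r probe sets and of the folds of genes dim in Het.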
